A study of Mus musculus with 35 samples.

Results

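Small RNA was sequenced from the mouse hippocampus 8 h after pilocarpine-induced status epilepticus (SE, a prolonged seizure). The 4 libraries described here are the 2 SE libraries and the 2 control libraries that the labels place at 8 h, out of 16 small RNA libraries and 35 libraries in all. They were taken with every small RNA row of the count table, 44884 rows. The mice were C57BL/6j, male and female, 6 to 7 weeks old. Pilocarpine, a muscarinic agonist that provokes seizures, was injected into the peritoneum at 350 mg/kg per the labels, and controls received saline. The methods add further, smaller doses until sustained seizures set in, and the study's sample table lists a final dose above 350 mg/kg for both SE mice. According to the methods, SE and control mice alike had first received scopolamine, which limits the effects of pilocarpine outside the brain. Each library came from 1 mouse, and by the study's sample table replicate 1 was female and replicate 2 male in both groups, so the replicate number cannot be told apart from sex. The labels put these 4 libraries in a batch of their own, while the libraries at 1 h, 24 h and 120 h share another. Time and batch therefore cannot be told apart in any level set beside those of the other times. The comparison asked which small RNAs differed between SE and control hippocampus at 8 h.

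MicroRNAs are short RNAs cut from a hairpin precursor by Drosha and Dicer. Loaded into an Argonaute protein, they pair through their seed, the bases next to the 5′ end, with target mRNAs, which are then translated less or degraded. The brain holds abundant and characteristic microRNAs such as miR-9, miR-124 and miR-128 of neurons. Small nucleolar RNAs (snoRNAs) guide the methylation (C/D box) or pseudouridylation (H/ACA box) of ribosomal and other RNAs. The table also names many rows after PIWI-interacting RNAs (piRNAs). In brain tissue such rows can hold fragments of other RNAs that match a piRNA entry, so they are called piRNA-annotated here.

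The mature microRNAs on which the results turn are shown first, from RefSeq for the assembly GRCm38.p6, with the seed (bases 2 to 8) in capitals. The first set holds single microRNAs that were higher in both SE libraries than in both controls.
miR-331-5p: cUAGGUAUggucccagggaucc
miR-340-5p: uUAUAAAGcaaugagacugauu
miR-542-3p: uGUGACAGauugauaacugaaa
miR-410-3p: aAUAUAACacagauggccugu
miR-377-3p: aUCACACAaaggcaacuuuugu
miR-21a-5p: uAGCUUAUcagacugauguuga
miR-18a-5p: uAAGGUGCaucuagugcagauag

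The second set is grouped by shared seed, since members of a seed group are read against the same short target motif. miR-19a-3p and miR-19b-3p share GUGCAAA, the miR-30 members share GUAAACA, and the miR-15 and miR-16 members share AGCAGCA.
miR-19a-3p: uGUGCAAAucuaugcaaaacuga
miR-19b-3p: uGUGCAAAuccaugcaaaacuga
miR-30a-5p: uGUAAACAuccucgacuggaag
miR-30e-5p: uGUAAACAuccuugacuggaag
miR-384-5p: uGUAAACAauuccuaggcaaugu
miR-15a-5p: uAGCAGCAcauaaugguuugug
miR-15b-5p: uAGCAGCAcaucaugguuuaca
miR-16-5p: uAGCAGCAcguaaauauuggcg

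The third set was lower in both SE libraries, or was high in 1 control library. The first of its sequences are those of microRNAs that were low in both SE libraries at like levels in both controls, and the others belong to rows whose control level came mostly from control replicate 2.
miR-3968: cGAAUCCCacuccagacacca
miR-296-3p: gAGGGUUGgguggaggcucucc
miR-23b-5p: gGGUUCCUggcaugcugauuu
miR-5119: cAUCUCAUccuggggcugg
miR-5124a: gGUCCAGUgacuaagagcau
miR-5106: aGGUCUGUagcucaguuggcaga
miR-7654-3p: cGAGCGGGagcgcgccucgucc

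The last set belongs to the miR-34 and miR-449 family, which shares the seed GGCAGUG, and to the cluster in the introns of Htr2c, the serotonin receptor gene that choroid plexus expresses strongly.
miR-34a-5p: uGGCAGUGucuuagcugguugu
miR-34b-5p: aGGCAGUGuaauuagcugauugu
miR-449a-5p: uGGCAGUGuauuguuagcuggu
miR-448-3p: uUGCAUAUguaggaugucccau
miR-1298-5p: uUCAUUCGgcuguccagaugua

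On the build NCBIM37, the hairpin of miR-331 lies on the minus strand at chr10:93426513-93426608 and overlaps an exon of Vezt. That of miR-340 lies on the plus strand at chr11:49883204-49883301 in an intron of Rnf130. The hairpins of miR-18a (chr14:115443073-115443168) and miR-19a (chr14:115443222-115443303) lie on the plus strand in an exon of Mir17hg, the host transcript of the miR-17-92 cluster. miR-410 (chr12:110981925-110982005) and miR-377 (chr12:110978720-110978787) lie on the plus strand in an exon of Mirg, in the imprinted Dlk1-Dio3 region. miR-30e lies on the minus strand at chr4:120445211-120445302 in an intron of Nfyc. miR-34b lies on the minus strand at chr9:50911667-50911750, in no other annotated gene. miR-448 (chrX:143592753-143592864) and miR-1298 (chrX:143499448-143499545) lie on the plus strand in introns of Htr2c.

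The SE libraries held 5822866 and 5672639 counts and the control libraries 3725274 and 3171341, so the controls were the shallower pair. 3 counts, the limit that a count of 0 allows, correspond to 0.515 and 0.529 CPM (counts per 1000000 counts) in the SE libraries and to 0.805 and 0.946 CPM in the controls. These limits cover counting error only. They are unscaled, whereas the levels below are CPM scaled by trimmed-mean (TMM) factors over all 16 libraries. On that scale, 3 counts are 0.540 and 0.632 CPM in the SE libraries and 0.818 and 1.04 CPM in the controls. Neuronal marker microRNAs summed to 372877 and 468837 CPM in the SE libraries and to 380897 and 431860 CPM in the controls, and miR-9-5p alone held 232203 and 278255 against 211825 and 249069 CPM. The libraries thus carried the microRNAs of neural tissue. Muscle markers summed to between 6.66 and 12.4 CPM over the 4 libraries.

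Control replicate 2 stood apart from the other libraries. Its log2 CPM correlated with those of the 15 others at a median r of 0.821, against medians of 0.886 to 0.942 for the other 8 h libraries and 0.961 to 0.981 for the libraries of the other times. It held 29 features at 10 CPM or more and at least 10-fold above every other library, of which 20 were piRNA-annotated and 4 were microRNAs, a rule chosen after the data were seen. SE replicate 1 held 3 such features, control replicate 1 held 1, and the other 13 libraries held 0. The 3 in SE replicate 1 were mmu_piR_000634, at 11483 and 23.8 CPM in the SE libraries and 186 and 281 CPM in the controls, and the H/ACA snoRNAs Snora73a and Snora74a. In control replicate 2, mmu-miR-5106 alone reached 18496 CPM, against 614, 1.90 and 727 CPM in SE replicate 1, SE replicate 2 and control replicate 1. For the lists, and for some of the named features whose difference came largely from 1 of these libraries, values without it are given. A feature shown without such a value may rest on 1 library too.

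**Figure D1:**
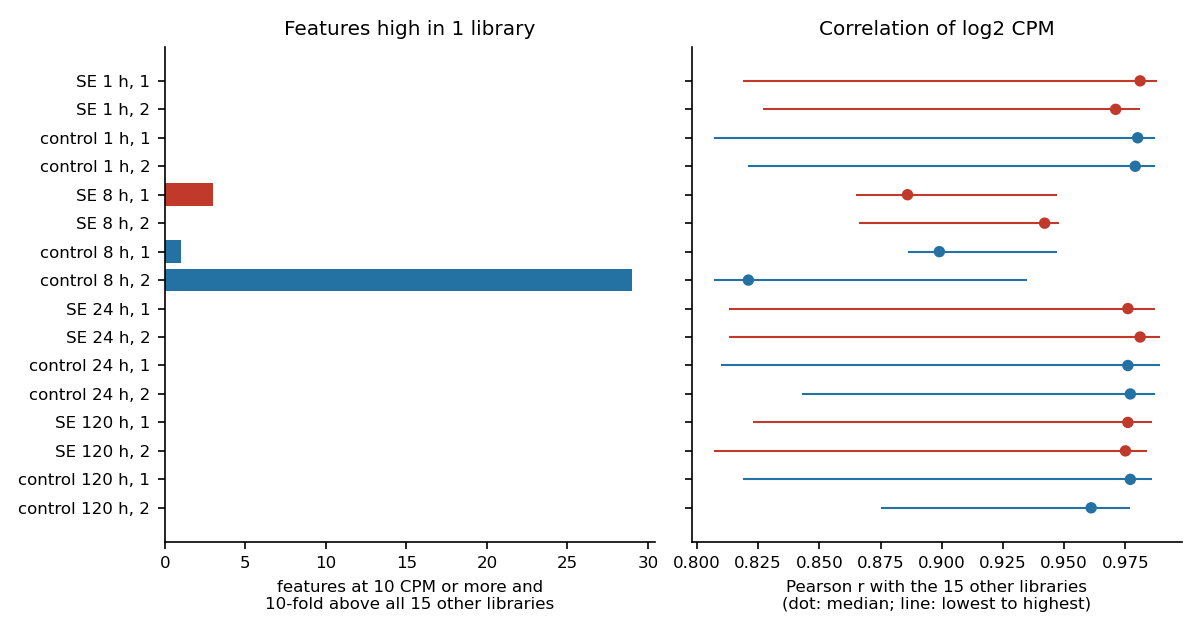
For each of the 16 small RNA libraries (red, SE; blue, control), the left panel gives the number of features at 10 CPM or more and at least 10-fold above all other libraries, and the right panel the Pearson r of log2 CPM with the 15 other libraries (dot, median; line, lowest to highest). Control replicate 2 at 8 h has 29 such features and the lowest median r, 0.821.

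Of the 44884 rows, 6300 had a count in at least 1 of the 4 libraries, and 1103 passed the filter on low counts and were tested: 663 microRNAs, 166 snoRNAs, 140 piRNA-annotated rows, 80 of other classes, 26 small nuclear RNAs (snRNAs), 16 predicted microRNAs and 12 ribosomal RNA (rRNA) rows. With edgeR's quasi-likelihood test and Benjamini-Hochberg adjustment over these, 0 features (0%) had an adjusted p under 0.05, and the smallest adjusted p was 0.185. At an unadjusted p under 0.05 there were 155 features (14.1%), 95 higher in SE (8.61%) and 60 lower (5.44%). edgeR's likelihood ratio test called 16 at an adjusted p under 0.05 (1.45%), 4 higher and 12 lower. DESeq2 called 14 of the 867 for which it gave an adjusted p (1.61%), 5 higher and 9 lower.

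The median log2 fold change over all features tested was 0.03, and 571 of 1103 (51.8%) lay above 0. Both SE libraries were above both controls for 239 features (21.7%) and below both for 181 (16.4%). Over the 663 microRNAs tested, these shares were 25.9% and 12.5%. A row that passed the filter on low counts only through 1 group at 8 h could differ in 1 direction alone. Such rows are included in these shares and were not counted apart. Of the 1103 features tested, 663 were microRNAs, 166 snoRNAs and 140 piRNA-annotated rows. Among the 95 features higher at an unadjusted p under 0.05 were 59 microRNAs, 17 snoRNAs and 8 piRNA-annotated rows. The microRNA and snoRNA shares of the 95 were near those over all features. The 60 lower held 22 microRNAs, 3 snoRNAs and 29 piRNA-annotated rows, a larger piRNA-annotated share than over all features. The 2 directions differed also in which library held the extreme value. Of the 95, SE replicate 1 was the highest library for 83 and SE replicate 2 for 12. Of the 60, control replicate 2 was the highest library for 47 and control replicate 1 for 13.

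**Figure D2:**
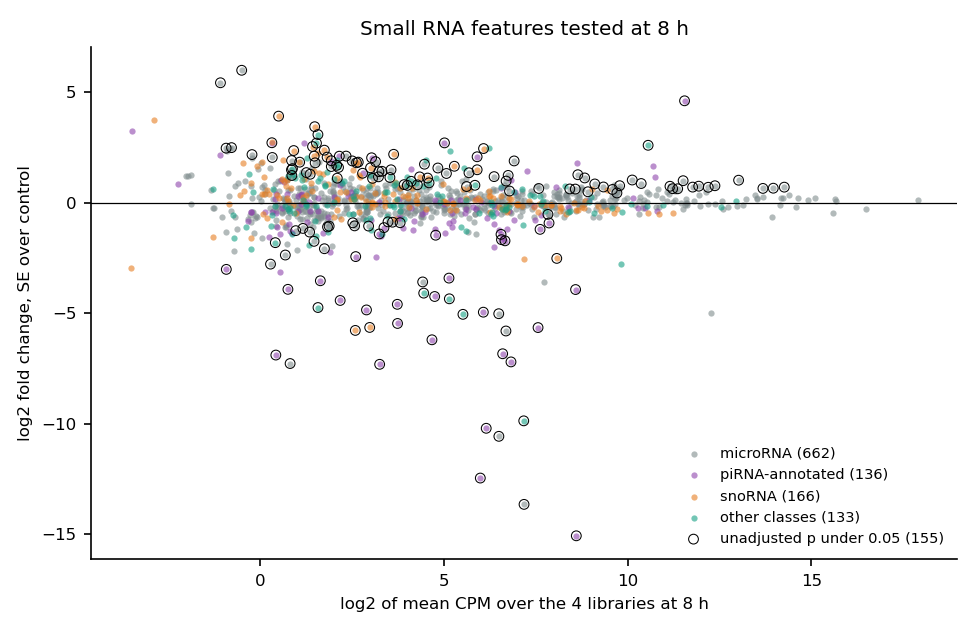
Each point is 1 of the 1097 tested features with a count at 8 h, drawn at the log2 of its mean CPM over the 4 libraries and its log2 fold change of SE over control, with colours for the class and a ring for an unadjusted p under 0.05. The ringed points with the largest negative fold changes are rows with a very high level in control replicate 2, and 6 tested features with no count at 8 h are not drawn.

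Among the microRNAs higher in both SE libraries, miR-331-5p, the minor arm of its hairpin, had the smallest p. It stood at 13.7 and 13.7 CPM in the SE libraries and 6.00 and 4.16 CPM in the controls. The SE values were equal to within 3 digits and above the range of the 12 libraries of the other times, 6.84 to 9.44 CPM, while both controls lay below that range. Its log2 fold change was 1.42 ± 0.30 (standard error, as for every fold change below), with an adjusted p of 0.185 by the quasi-likelihood test. The likelihood ratio test and DESeq2 gave adjusted p-values of 0.035 and 0.034. These standard errors were derived from the quasi-likelihood statistic, whose spread is estimated over all 8 groups. They do not measure the spread between the 8 h mice, whose libraries correlated less within groups than those of the other times.

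miR-340-5p was the most abundant of the microRNAs that any of these 3 tests called. It was measured at 4799 and 2981 CPM in the SE libraries and 1951 and 1925 CPM in the controls, a log2 fold change of 1.01 ± 0.26 (adjusted p = 0.185, quasi-likelihood test) with an adjusted p of 0.027 by DESeq2. The controls were nearly equal and SE replicate 1 was the higher of the SE pair. Without SE replicate 1 the log2 fold change was 0.68. miR-542-3p, from an X-linked cluster, showed the same order of libraries at a lower level, 57.8 and 27.8 against 16.1 and 12.5 CPM, and a log2 fold change of 1.58 ± 0.43.

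miR-21a-5p, a microRNA of glia and other cells that rises in many injury models, stood at 7709.8 and 5702 CPM in the SE libraries and 4111 and 3714 CPM in the controls. Its groups did not overlap and its log2 fold change was 0.78 ± 0.23 (adjusted p = 0.245, quasi-likelihood test). The 12 libraries of the other times spanned 4043 to 6690.3 CPM, a range that held SE replicate 2 and control replicate 1, so that SE replicate 1 lay above it and control replicate 2 below it. miR-6911-3p differed from these in that SE replicate 2 was the highest library, with 2.70 and 6.11 against 1.09 and 1.39 CPM. Neither miR-3062-5p nor miR-31-3p had a count in the controls. miR-3062-5p had 7 and 3 counts in the SE libraries and 0 and 0 in the controls, and miR-31-3p had 11 and 4 counts in the SE libraries and 0 and 0 in the controls. At this depth the scaled control floor of 0.818 to 1.04 CPM overlaps these SE levels of 0.632 to 1.98 CPM, so no fold is given.

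**Figure D3:**
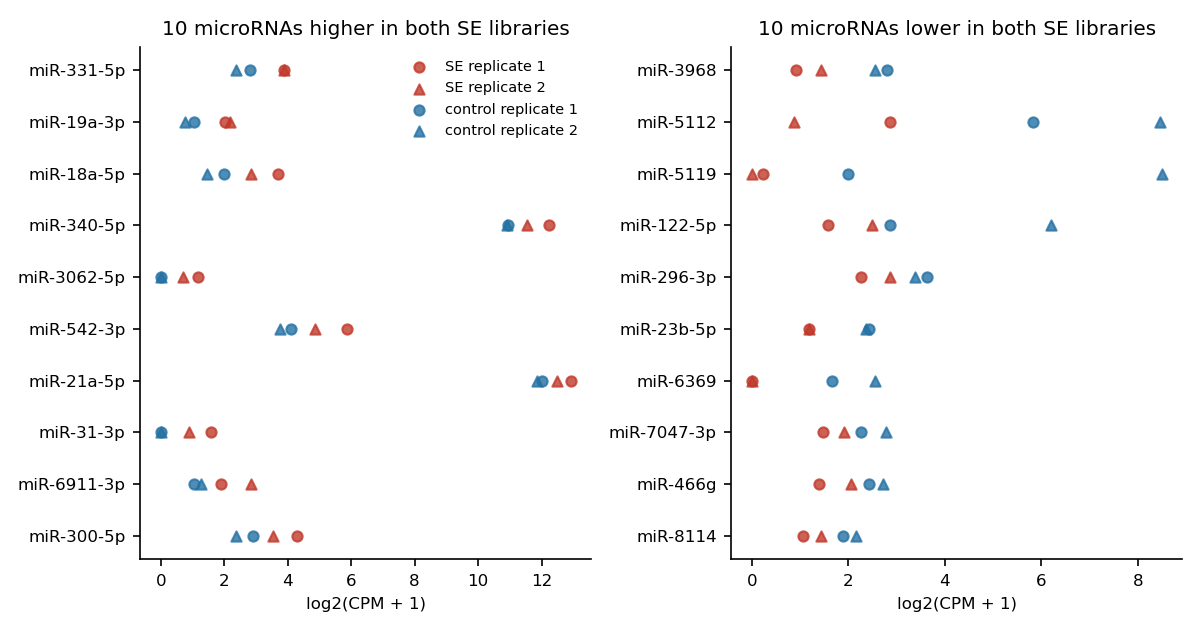
Level in log2(CPM + 1) of the 10 microRNAs of smallest p that were higher in both SE libraries (left) and of the 10 that were lower (right), with 1 point per library (red, SE; blue, control; circle, replicate 1; triangle, replicate 2). miR-331-5p has both SE libraries at 13.7 CPM, and miR-5112, miR-5119 and miR-122-5p show control replicate 2 far above control replicate 1.

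The seed groups printed above held several members on the same side, but they were chosen after the values were seen. The miR-15 and miR-16 group and the miR-30 group had the highest medians among seed groups with at least 4 tested members. The medians of the other such groups ran from -0.104 to 0.289. In the miR-15 and miR-16 group, 6 of 6 tested members had a log2 fold change above 0, with a median of 0.55 beside 0.03 over all features, and 5 were higher without overlap, beside 21.7% of all features. miR-15a-5p was at 159 and 70.2 against 51.2 and 49.3 CPM, with SE first here and in the pairs that follow. miR-16-5p, the most abundant of them, was at 3439 and 2509 against 1958 and 2148 CPM, and miR-15b-5p was at 67.7 and 76.1 against 55.3 and 54.8 CPM. These microRNAs are known for restraining cell cycle genes. 1 of the 6, miR-15a-5p, had an unadjusted p under 0.05, and its log2 fold change of 1.19 ± 0.45 was 0.54 without SE replicate 1.

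In the miR-30 seed group, 3 of the 4 members with a RefSeq entry were higher without overlap, each at an unadjusted p under 0.05, beside 21.7% and 8.61% of all features. miR-30a-5p stood at 28223 and 20553 CPM in the SE libraries and 15169 and 14577 CPM in the controls, and its log2 fold change was 0.71 ± 0.22. miR-30e-5p, from an intron of Nfyc, stood at 14987 and 7276 against 6117 and 4801 CPM, with SE replicate 1 far above the rest, and its log2 fold change of 1.03 ± 0.33 was 0.47 without that library. The neuronal miR-384-5p was at 915 and 1015 against 792 and 621 CPM, with close values within each group. The fourth member, miR-30c-5p, overlapped at 8295 and 9365 against 8658 and 9962 CPM, a log2 fold change of -0.08 ± 0.24. miR-30b-5p and miR-30d-5p overlapped too, at 1085 and 742 against 637 and 764 CPM and 17544 and 22194 against 18474 and 15494 CPM.

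The let-7 family, known for promoting differentiation, had 11 of 21 tested members above 0 and 10 below, a median of 0.05. Its 9 members with the seed GAGGUAG spanned log2 fold changes from -0.28 to 0.41. let-7f-5p and let-7g-5p, the most abundant, stood at 34669 and 40386 against 31185 and 33567 CPM and at 30359.7 and 33416 against 26882 and 31165 CPM.

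In the miR-17-92 cluster and its paralogs, known for growth control, the members differed in direction and size. miR-18a-5p was at 11.9 and 6.11 against 3.00 and 1.74 CPM (1.90 ± 0.48 on the log2 scale), miR-19a-3p at 3.06 and 3.58 against 1.09 and 0.694 CPM (1.84 ± 0.46) and miR-19b-3p at 24.3 and 14.3 against 10.4 and 11.4 CPM (0.83 ± 0.37). These 3 of 17 tested had an unadjusted p under 0.05, beside 8.61% higher over all features, and did not overlap. By contrast miR-17-5p, from the same transcript, was at 15.5 and 16.4 against 16.9 and 14.6 CPM, and miR-92a-3p at 425 and 824 against 692 and 624 CPM, both with overlapping groups. The fold change of miR-19a-3p rested on 4 and 2 counts in the controls, and its level in control replicate 2 lay under the scaled floor of 1.04 CPM. Over the list 11 of 17 tested members were above 0, with a median of 0.14. All 4 libraries at 8 h were far below the other times for some of these: miR-19b-3p spanned 111 to 221 CPM and miR-19a-3p 11.2 to 22.6 CPM in the 12 libraries of the other batch.

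Among the microRNAs lower in SE, miR-3968 had the smallest p of all 663 tested. It stood at 0.900 and 1.69 CPM in the SE libraries and 6.00 and 4.86 CPM in the controls. Both controls lay within the range of the other times, 3.17 to 6.58 CPM, and both SE libraries below it. The log2 fold change was -2.07 ± 0.40 (adjusted p = 0.185, quasi-likelihood test; adjusted p of 0.0089 by the likelihood ratio test and 0.041 by DESeq2), and without control replicate 2 it was -2.21. These are few counts, 5 and 8 counts in the SE libraries and 22 and 14 in the controls.

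miR-23b-5p, the minor arm of a hairpin in an intron of 2010111I01Rik, was at 1.26 and 1.26 against 4.36 and 4.16 CPM, so that each group was nearly uniform and the log2 fold change was -1.74 ± 0.59. miR-296-3p, from an imprinted locus, was at 3.78 and 6.32 against 11.4 and 9.37 CPM. The further microRNAs miR-7047-3p, miR-466g and miR-8114 stood between 1.08 and 3.16 CPM in SE and between 2.73 and 5.90 CPM in the controls, with log2 fold changes from -1.15 to -1.05. For each of the 3, SE replicate 1 was the lowest library and control replicate 2 the highest. miR-6369 had 0 and 0 counts in the SE libraries and 8 and 14 in the controls, and 0 CPM in the 12 libraries of the other times. It passed the filter on low counts through the 8 h controls alone. Its direction was therefore fixed by the filter and is no support for a difference.

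The other named lower microRNAs were set largely by control replicate 2. miR-5112 stood at 6.30 and 0.843 CPM in the SE libraries and 55.3 and 349.7 CPM in the controls, and miR-5119 at 0.180 and 0 CPM in the SE libraries and 3.00 and 358 CPM in the controls. Both controls were above both SE libraries, but the controls themselves differed several-fold for miR-5112 and far more for miR-5119 (11 and 1031 counts). Their log2 fold changes of -5.80 ± 1.27 and -10.56 ± 2.64 were -3.92 and -4.67 without control replicate 2. miR-5124a had 1672 counts in control replicate 2 and 0 in the other 8 h libraries, so it overlaps, although DESeq2 gave it an adjusted p of 0.0015. miR-122-5p, the abundant microRNA of liver and a name the study discusses at 8 h, stood at 1.98 and 4.64 CPM in the SE libraries and 6.27 and 72.9 CPM in the controls. Its log2 fold change was -3.58 ± 0.91 (adjusted p = 0.185, quasi-likelihood test; 0.0066 by DESeq2) and -0.93 without control replicate 2, whereas the 12 other libraries spanned 3.46 to 9.24 CPM.

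The study's text also names miR-5106, miR-7654-3p, miR-6236 and miR-6538 for 8 h. miR-5106 was at 614 and 1.90 CPM in the SE libraries and 727 and 18496 CPM in the controls, a log2 fold change of -4.96 ± 2.49 that was -1.24 without control replicate 2. miR-7654-3p was at 10.6 and 0 CPM in the SE libraries and 36.8 and 313 CPM in the controls, a log2 fold change of -5.01 ± 2.01 (adjusted p = 0.299, quasi-likelihood test) and of -2.77 without control replicate 2. For miR-6236 the groups overlapped, at 249.6 and 12.6 against 89.9 and 71.1 CPM, and the log2 fold change was 0.70 ± 0.93; without SE replicate 1 it was -2.62. miR-6538 was at 25.4 and 2.95 against 26.4 and 26.7 CPM, with SE replicate 1 beside the controls and SE replicate 2 below them. In each of these 4, SE replicate 2 was the lowest library at 8 h.

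MicroRNAs with a number of 5000 or above, which entered the catalogue late and include many rows of low level, formed the list with the lowest median, -0.29. Of 81 tested, 55 were lower and 26 higher, and 20 were lower without overlap (24.7%) against 8 higher (9.88%), beside 16.4% and 21.7% over all features. Their summed level was 1789 and 852 CPM in SE and 1884 and 21828 CPM in the controls, beside 813 to 1359 CPM at the other times. Without control replicate 2 the median was -0.08, and without SE replicate 1 it was -0.02.

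In the Htr2c intron cluster every tested member was on the higher side. Its 10 members had log2 fold changes from 0.40 to 2.36, with a median of 0.78, and 8 were higher without overlap, beside 21.7% of all features, but 0 had an unadjusted p under 0.05. miR-448-3p was at 991 and 1007 CPM in the SE libraries and 858 and 296.3 CPM in the controls, and miR-1264-3p was at 62.1 and 57.9 against 40.1 and 20.1 CPM. miR-1298-5p, the most abundant, overlapped at 4770.4 and 5766 against 5513 and 2003 CPM. In all of these the control replicate 2 value was the low one, and control replicate 1 lay nearer to the SE libraries. The summed level was 6161 and 7118 CPM in SE against 6653 and 2446 CPM in the controls. Without control replicate 2 the median was 0.36, and without control replicate 1 it was 1.375.

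The choroid plexus, which makes cerebrospinal fluid and borders the hippocampus, could enter a dissection in varying amount. In mRNA from the mice with the same numbers, its markers were lowest in the same control. The 12 markers summed to 3401 and 3239 CPM in the SE mice and to 3673 and 1168 CPM in controls 1 and 2. Ttr, which encodes the thyroid hormone carrier transthyretin, stood at 2809, 2681, 3028 and 997 CPM in that order, and all 12 of 12 markers were lowest in control 2, with none at 0. In small RNA, the 10 rows of choroid plexus marker microRNAs, miR-448 and miR-1298 of this cluster among them, summed to 7712 and 9592 CPM in SE and to 9034 and 3627 CPM in the controls. The part that choroid plexus tissue had in the small RNA difference was not tested. In bulk tissue, fewer cells of a type and less RNA per cell cannot be told apart.

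**Figure D4:**
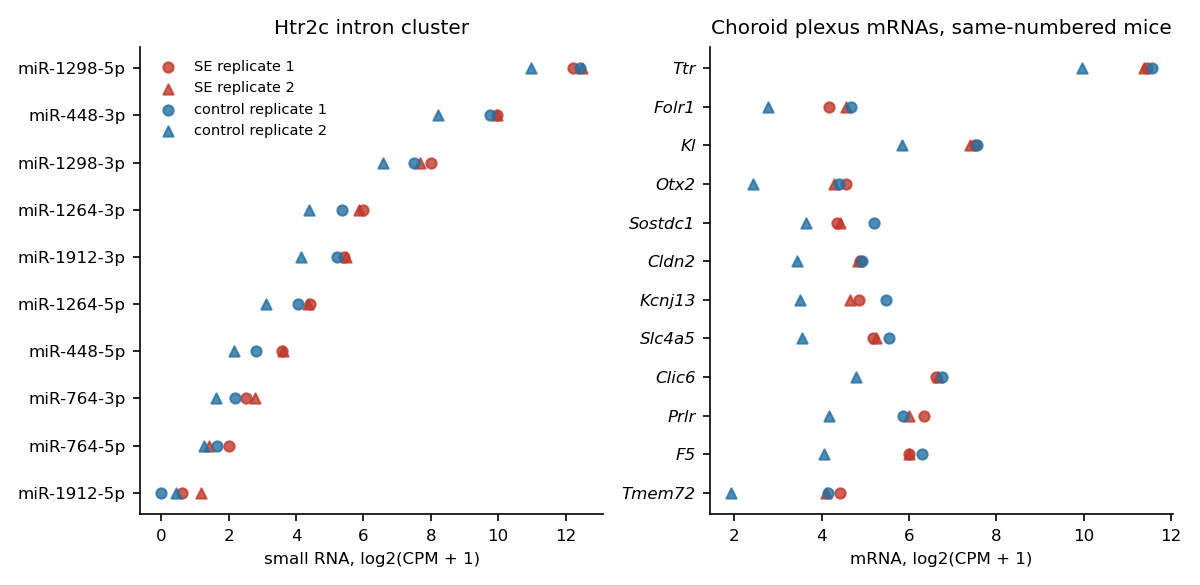
Level in log2(CPM + 1) of the 10 members of the Htr2c intron cluster in small RNA (left) and of 12 choroid plexus markers in mRNA of the mice with the same numbers (right), with 1 point per library (red, SE; blue, control; circle, replicate 1; triangle, replicate 2). Control replicate 2 is lowest for all 12 mRNA markers, and its summed level is 1168 CPM against 3239 to 3673 CPM in the others.

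The miR-34 and miR-449 family is known for multiciliated epithelia such as ependyma and choroid plexus, and its miR-34 genes as targets of p53. It had 5 of 6 tested members above 0 and a median of 0.35. miR-34b-5p, which the study follows over time, was at 4.50 and 3.58 CPM in the SE libraries and 2.18 and 0.347 CPM in the controls, which is 25 and 17 counts in the SE libraries and 8 and 1 in the controls. The groups did not overlap, but its log2 fold change of 1.60 ± 0.92 had an adjusted p of 0.47 by the quasi-likelihood test, 0.44 by the likelihood ratio test and 0.40 by DESeq2. It was 0.89 without control replicate 2 and 3.48 without control replicate 1, which leaves a control of 1 count. miR-34c-5p, from the same transcript, stood higher at 554 and 506 against 466.6 and 218 CPM and had the same order of libraries. miR-34a-5p, from another locus, overlapped at 98.1 and 90.6 against 101.1 and 68.3 CPM. At the other times miR-34b-5p spanned 18.9 to 124 CPM, so all 4 libraries at 8 h lay below all 12 others. Without control replicate 2 the median of the family was -0.05.

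Of 15 other epithelial and choroid microRNAs tested, 9 were above 0, with a median of 0.11. That median was -0.2 without control replicate 2 and 0.448 without control replicate 1. The summed level of the list was 2236 and 3101 CPM in SE against 3151 and 1639 CPM in the controls, so that control replicate 2 was again the lowest library. miR-203-3p, a microRNA of epithelia, was at 126 and 135 against 100.3 and 79.4 CPM without overlap. In contrast the miR-96, miR-182 and miR-183 cluster, known from sensory cells, was high in control replicate 1: miR-182-5p stood at 40.2 and 22.97 against 138 and 31.6 CPM and miR-183-5p at 35.7 and 22.1 against 122 and 21.5 CPM. Its other-time values for miR-182-5p, 3.79 to 101.4 CPM, show a like spread between libraries.

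The most abundant microRNAs of the hippocampus had small fold changes. Among the 10 highest in the controls, log2 fold changes ran from -0.65 ± 0.47 for miR-125a-5p to 0.21 ± 0.25 for let-7f-5p, with miR-9-3p at 0.21 ± 0.14, and the smallest unadjusted p was 0.16. miR-124-3p, the neuronal microRNA, was at 52345 and 55697 against 47332 and 54706 CPM. In SE replicate 1 several were low: miR-125a-5p was at 5645 and 18473 against 17974 and 19967 CPM and miR-125b-5p at 24649 and 57967 against 53569 and 60279 CPM, while SE replicate 2 lay near the controls. In the brain-enriched list, 13 of 22 were above 0, the median was 0.10, and 2 had an unadjusted p under 0.05, both higher, beside 8.61% over all features. These were miR-218-5p, a microRNA of motor and other neurons, at 19657 and 12459 against 9303 and 11066 CPM, and miR-153-3p at 315 and 64.9 against 60.0 and 41.6 CPM. The latter rested on SE replicate 1, without which its log2 fold change was 0.40.

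Of the microRNAs known to follow neuronal activity or seizures, miR-132-3p and miR-212-3p, which CREB drives from a common transcript, did not differ beyond the spread, at 1236 and 1437 against 1498 and 1269 CPM and 89.7 and 96.1 against 101.7 and 95.4 CPM. miR-134-5p, a dendritic regulator of spine size, was at 250.5 and 245 against 244 and 245 CPM, a log2 fold change of 0.02 ± 0.20. miR-146a-5p, induced by inflammatory signalling, was at 409.99 and 439 against 323 and 558 CPM. Only miR-21a-5p, described above, and miR-22-3p had an unadjusted p under 0.05 among the 12 of this list that were tested, beside 14.1% of all features. miR-22-3p stood at 2099.8 and 901 against 743 and 720.2 CPM, with SE replicate 1 alone well above the others, and its log2 fold change of 1.04 ± 0.45 was 0.36 without that library.

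The microRNAs of leukocytes and microglia had a median of 0.33, with 6 of 10 above 0 and 3 at an unadjusted p under 0.05, all higher, beside 8.61% of all features. A shorter set of 6 marker microRNAs of these cells summed to between 346 and 386 CPM over the 4 libraries, the SE pair slightly above the controls. The miR-142a arms, made in blood-derived cells, were at 175 and 100.3 against 67.9 and 70.8 CPM for the 5p arm and 8.64 and 2.95 against 1.64 and 2.08 CPM for the 3p arm. The log2 fold change of the 5p arm was 0.99 ± 0.32, and 0.59 without SE replicate 1. In the other direction miR-150-3p, an arm of a lymphocyte microRNA, was lower without overlap at 3.96 and 5.48 against 8.45 and 7.63 CPM. miR-155-5p, an inflammatory microRNA, was at 9.18 and 12.9 against 7.63 and 6.25 CPM. Their values were highest in SE replicate 1 for miR-142a and in SE replicate 2 for miR-155-5p. Vascular microRNAs gave 8 of 13 above 0 and 5 below, a median of 0.13 that was -0.165 without SE replicate 2. miR-126a-3p of endothelium was at 6254 and 3575 against 2874 and 2941 CPM, and miR-143-3p of smooth muscle at 23775 and 15373 against 12526 and 12147 CPM. In the red cell pair, miR-144-5p was at 66.6 and 29.5 against 23.2 and 14.9 CPM and miR-451a at 607 and 447 against 356 and 288 CPM. SE replicate 1 was the highest library in all 4 of these vascular and red cell microRNAs. The other arm, miR-144-3p, overlapped at 9.18 and 2.74 against 3.27 and 2.78 CPM, with SE replicate 2 below both controls. In the blood and liver list, 3 of 5 tested members were above 0, with a median of 0.71. The share of blood or vessel in the tissue was not tested.

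Oligodendrocyte microRNAs were tested at 4 rows, all above 0, with a median of 0.32 that was -0.16 without SE replicate 2. miR-219a-2-3p was at 2447 and 4061 against 2746 and 3035 CPM and miR-338-3p at 2.34 and 4.21 against 1.64 and 1.39 CPM. The latter rested on 13 and 20 counts in the SE libraries and 6 and 4 in the controls. The more abundant miR-338-5p overlapped at 690 and 1305 against 1015 and 824 CPM. Both miR-219a-2-3p and miR-338-5p were highest in SE replicate 2 and lowest in SE replicate 1. The 4 tested muscle microRNAs had a median of 0.255 and summed to 18.5 to 31.9 CPM over the list in each library.

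The Dlk1-Dio3 cluster, the large imprinted microRNA cluster expressed in neurons, had 49 of 88 tested members above 0, a median of 0.08. Of the 88, 29 were higher without overlap and 5 lower, that is 33% and 5.68% of the tested members. These shares were 21.7% and 16.4% over all features and 25.9% and 12.5% over all microRNAs tested. At an unadjusted p under 0.05 there were 15 higher and 2 lower, beside 8.61% and 5.44% of all features. miR-410-3p was at 854 and 566 CPM in the SE libraries and 373 and 410.1 CPM in the controls, a log2 fold change of 0.86 ± 0.27, and miR-377-3p was at 107 and 41.3 against 27.3 and 30.2 CPM. Without SE replicate 1 the log2 fold change of miR-377-3p went from 1.37 ± 0.45 to 0.58. miR-300-5p stood at 18.5 and 10.5 against 6.54 and 4.16 CPM and miR-679-5p at 15.3 and 10.5 against 5.18 and 6.25 CPM. SE replicate 1 was the highest library and SE replicate 2 the second for all 4. The summed level of the cluster was 60618 and 60831 CPM in SE and 50460 and 54992 CPM in the controls, beside 46024 to 55641 CPM at the other times. Its median was -0.01 without control replicate 1 and between 0.13 and 0.28 without each of the other libraries.

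The Sfmbt2 cluster, a rodent repeat-derived family that includes miR-466, miR-467 and miR-669, gave 11 of 19 above 0 and a median of 0.40, which was -0.07 without SE replicate 1. miR-467e-5p was at 29.7 and 19.8 against 14.2 and 13.9 CPM. Members of this family share near-identical sequences, so their counts are uncertain.

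**Figure D5:**
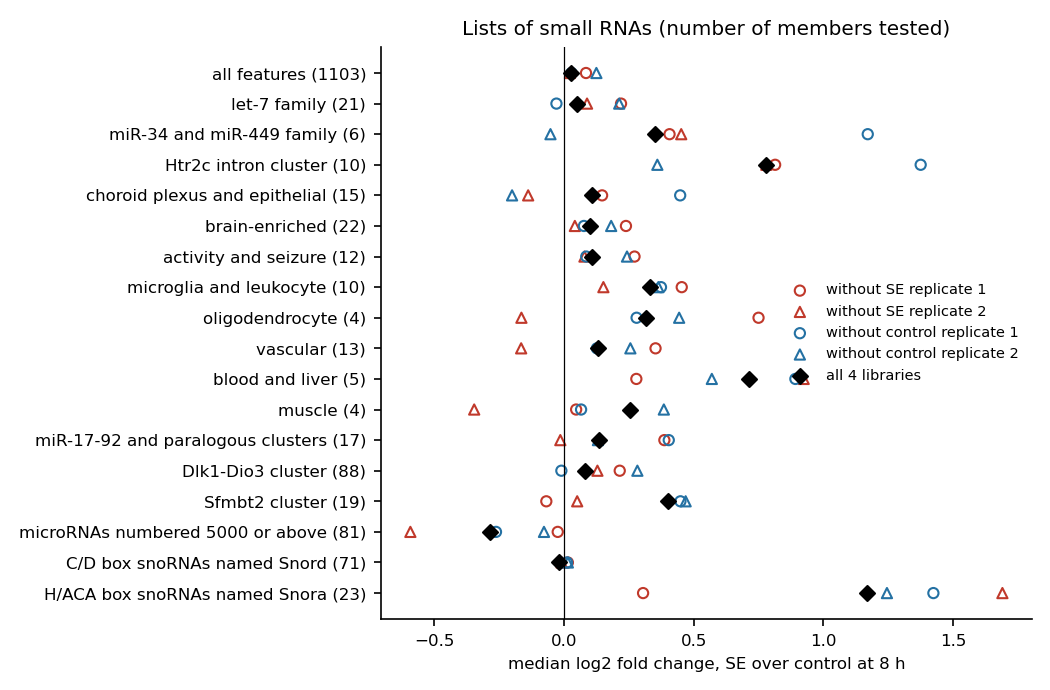
Median log2 fold change of SE over control at 8 h for all features and for each list of small RNAs, with the number of members tested in brackets (black diamond, all 4 libraries; open red and blue symbols, without 1 SE or 1 control library). The H/ACA snoRNAs named Snora stand at 1.17 with all libraries and at 0.305 without SE replicate 1. The Htr2c cluster falls between 0.36 and 1.375 when 1 library is left out.

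Among snoRNAs, box classes were taken from row names alone, Snora for H/ACA and Snord for C/D. Of 166 snoRNA rows tested, 23 and 71 were so named, and the others are in neither list. These lists differed in pattern. Of the 23 rows named Snora, 22 were above 0, the median was 1.17, and 11 were higher without overlap (47.8%) against 0 lower. Over all features these shares were 21.7% and 16.4%. Snora20 was at 7.92 and 3.37 CPM in the SE libraries and 1.09 and 1.04 CPM in the controls, a log2 fold change of 2.39 ± 0.62 (adjusted p = 0.203, quasi-likelihood test; 0.038 by the likelihood ratio test). Snora26 was at 4.68 and 1.69 against 0.818 and 0.347 CPM and Snora75 at 7.20 and 1.90 against 1.64 and 0.347 CPM. The controls held few counts, 4 and 3 of Snora20, 3 and 1 of Snora26 and 6 and 1 of Snora75. SE replicate 1 was the highest library for each. Without it their log2 fold changes were 1.69, 1.49 and 0.90, and the median of the H/ACA list was 0.305. Snora64, the 1 row below 0, was at 80.7 and 4.00 against 14.4 and 476 CPM and made up most of the list's sum in control replicate 2.

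The 71 rows named Snord had a median of -0.02 with 35 above 0. Of them 11 were higher (15.5%) and 16 lower (22.5%) without overlap, beside 21.7% and 16.4% over all features. Snord61 was at 208 and 21.1 against 19.4 and 22.2 CPM, where only SE replicate 1 was high, and Snord83b at 143 and 33.7 against 32.7 and 29.8 CPM. Without SE replicate 1 their log2 fold changes were 0.08 and 0.16. Snord65 was lower at 238 and 291 against 415 and 342 CPM. Gm23344, an unnamed snoRNA gene in neither list, was at 55.6 and 105 CPM in the SE libraries and 756 and 159 CPM in the controls. Control replicate 1 thus held most of the difference. Its log2 fold change was -2.51 ± 0.58 (adjusted p = 0.185, quasi-likelihood test). It was the only feature called without control replicate 2, at an adjusted p of 0.0074, and without control replicate 1 its log2 fold change was -0.99.

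Of the 663 microRNAs tested, 355 were above 0 and 307 below, with a median of 0.056 that was -0.048 without SE replicate 2. Without overlap, 25.9% of them were higher and 12.5% lower. The piRNA-annotated rows leaned lower. Of 140 tested, 90 were below 0 and 46 above, the median was -0.425, and 45 were lower without overlap (32.1%) against 12 higher (8.57%), beside 16.4% and 21.7% over all features. Without control replicate 2 the median was -0.08, and without SE replicate 1 it was -1.178. mmu_piR_010089 was at 13.0 and 13.3 CPM in the SE libraries and 1.64 and 4.86 CPM in the controls, a log2 fold change of 2.04 ± 0.49 (adjusted p = 0.185, quasi-likelihood test; 0.0089 by the likelihood ratio test and 0.032 by DESeq2). mmu_piR_009304 was at 10.1 and 4.42 against 1.91 and 1.39 CPM. In the other direction, mmu_piR_004567 was at 59.2 and 42.8 CPM in the SE libraries and 98.9 and 175 CPM in the controls and mmu_piR_000578 at 14.6 and 14.5 against 28.3 and 52.0 CPM, with both controls above both SE libraries. mmu_piR_015521 was at 2.34 and 0.632 against 20.99 and 429 CPM, where control replicate 2 was more than 10-fold above control replicate 1. Its log2 fold change of -7.20 ± 2.03 was -3.77 without control replicate 2. mmu_piR_018467 had 1 and 0 counts in the SE libraries and 22 and 92 in the controls, and at most 0.77 CPM at the other times. It passed the filter on low counts through the 8 h controls alone, so its direction was fixed by the filter.

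By class, microRNAs held 92.1% and 95.5% of the counts in the SE libraries and 93.8% and 93.4% in the controls. snoRNAs held 1.65% and 1.56% against 2.16% and 1.80%, without overlap. An exact two-sided permutation test of that difference gave p = 0.333, the smallest that 2 libraries against 2 allow, and 1.0 after adjustment over the 7 classes. piRNA-annotated rows held 3.24% in SE replicate 1 and 0.737% in SE replicate 2, and 1.26% and 2.00% in the controls. The rRNA share was 0.613% and 0.089% against 0.126% and 0.193%. SE replicate 1 had the highest rRNA and piRNA-annotated shares of the 4. The other 12 libraries spanned 0.048% to 0.173% for rRNA, below SE replicate 1 and control replicate 2. For piRNA-annotated rows they spanned 1.67% to 3.68%, a range that held SE replicate 1 and control replicate 2, whereas SE replicate 2 and control replicate 1 lay below it.

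The effect at 8 h was set beside those at 1 h, 24 h and 120 h, where every effect was measured against controls labelled with the same time. The number of features at an unadjusted p under 0.05 was 42 (3.81%), 14 (1.27%) and 29 (2.63%) at those times, against 155 (14.1%) at 8 h. These p-values use a spread estimated over all 8 groups. The SE pair at 8 h correlated at r = 0.919 and the control pair at 0.935, against 0.958 to 0.987 for such pairs at the other times. With the 8 h libraries alone, 33 of 895 features passed, so the counts do not rank the times by size of response. Tests of the difference between the 8 h effect and each of the others gave 0 features (0%) at an adjusted p under 0.05 by edgeR's quasi-likelihood test, and 109 (9.88%), 101 (9.16%) and 38 (3.45%) at an unadjusted one. DESeq2 called 3 for 24 h and 0 for 1 h and 120 h. Of the 95 features higher at 8 h at an unadjusted p under 0.05, 0, 1 and 2 were also higher at that level at 1 h, 24 h and 120 h, and of the 60 lower, 0, 0 and 7 were also lower. For miR-340-5p the log2 fold change was 0.02 ± 0.25 at 1 h, -0.34 ± 0.25 at 24 h and 0.30 ± 0.25 at 120 h. For miR-331-5p it lay between -0.05 and 0.09 at those times. For miR-34b-5p it was 1.04 ± 0.73 at 1 h, -0.83 ± 0.73 at 24 h and -0.39 ± 0.73 at 120 h, and its difference from the 8 h effect had adjusted p-values of 0.927, 0.542 and 0.902 by the quasi-likelihood test.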

How the data were processed

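Small RNA libraries (NEXTflex Small RNA kit v3) were made from total RNA of mouse hippocampus. The authors demultiplexed with bcl2fastq 2.20.0.422, trimmed adapters and low-quality bases with the FASTX-Toolkit, cut 4 bases from each read end and counted with Oasis 2.0; the genome build of that step is not given in the sources used here. The deposited values are raw counts per feature, 1 column per library; the deposited mRNA values are HTSeq counts per gene and served only for choroid plexus markers.

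All 16 small RNA libraries were fitted in 1 model of 8 groups with edgeR 4.0.16 in R 4.3.3 (TMM scaling, filterByExpr, quasi-likelihood test, Benjamini-Hochberg adjustment over 1103 features, threshold 0.05). DESeq2 1.42.0 and other settings were alternatives. Replicates are separate mice per the study's sample table. Named features were the 10 microRNAs in each direction (5 in other classes) of smallest p with non-overlapping groups, the 10 most abundant, those in the study's text and up to 4 per list; seed groups, SE replicate 1 features and other list members were added after the values were seen. Members and lists were chosen with earlier results of these data known. Counts were also simulated for 1103 features, of which 1058 were tested. The quasi-likelihood test found 16 of 100 features changed by 1 on the log2 scale and 62 of 100 changed by 2, with 2 false calls. The simulation gave each feature the same spread in all libraries, with no batch shift and no outlying library. Its figures therefore do not describe detection at the spread of the 8 h libraries. Of the microRNA rows, 1618 matched a RefSeq mature sequence. Hairpin positions are from GENCODE on NCBIM37.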

Additional observations from a re-analysis of the deposited data

How the results depend on the processing

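At 8 h, 0 features passed an adjusted p of 0.05 in edgeR's quasi-likelihood test, also with RLE scaling, with TMM on microRNAs alone, with the 8 h libraries alone, and with the replicate number as a block. The count was 16 by the likelihood ratio test, 14 by DESeq2, 80 of 11109 without the filter on low counts, and 155 at an unadjusted p. That unadjusted count was 311 without the filter, 33 with the 8 h libraries alone and 99 with the replicate block. Same-numbered libraries at 8 h share the sex of the mouse by the study's sample table but come from different mice with no shared litter or day stated, and the replicate differences of SE and control correlated at -0.201 over 1103 features. With crossed numbers, chosen after seeing the data, the replicate block gave 6 calls. Without 1 library the adjusted count ran from 0 to 63 and the unadjusted one from 93 to 305; it was 63 and 305 without SE replicate 2, 5 without control replicate 1 and 1 without control replicate 2, where 93 passed unadjusted. The lone library left in a group is assumed to vary like the other groups.

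The difference of the 8 h effect from those at 1 h, 24 h and 120 h gave 35, 27 and 19 calls without the filter, 109, 101 and 38 at an unadjusted p, 0, 3 and 0 by DESeq2, and 0 to 1, 0 to 10 and 0 to 8 without 1 library, the highest each time without SE replicate 2. The cause was not tested.

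Median log2 fold changes of the lists moved by more than the spread between replicates as follows: with TMM on microRNAs alone 0.055 (brain-enriched), 0.29 (microglia and leukocyte). With no filter 0.21 (brain-enriched), 0.216 (activity and seizure), 0.439 (microglia and leukocyte), 0.357 (muscle), 0.192 (Dlk1-Dio3 cluster), 0.091 (C/D box snoRNAs). With 8 h libraries alone 0.402 (microglia and leukocyte), 0.791 (muscle). With replicate block 0.102 (muscle). With replicate block with crossed numbers 0.121 (muscle).

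Without 1 library the medians ranged -0.029 to 0.22 (let-7 family), -0.052 to 1.171 (miR-34 and miR-449 family), 0.36 to 1.375 (Htr2c intron cluster), -0.2 to 0.448 (choroid plexus and epithelial), 0.042 to 0.239 (brain-enriched), 0.079 to 0.272 (activity and seizure), 0.152 to 0.454 (microglia and leukocyte), -0.164 to 0.75 (oligodendrocyte), -0.165 to 0.353 (vascular), 0.279 to 0.924 (blood and liver), -0.346 to 0.385 (muscle), -0.014 to 0.404 (miR-17-92 and paralogous clusters), -0.01 to 0.283 (Dlk1-Dio3 cluster), -0.069 to 0.469 (Sfmbt2 cluster), -0.592 to -0.024 (microRNAs numbered 5000 or above), -0.009 to 0.015 (C/D box snoRNAs), 0.305 to 1.69 (H/ACA box snoRNAs).

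Over 134 named features and 1586 alternatives in all, the sign of the log2 fold change turned in 24. miR-6236 turned to -0.46 with the replicate block, crossed or not. Without 1 library the values of the features that turned ranged -2.62 to 1.64 (miR-6236), -0.72 to 0.14 (miR-128-3p), -1.19 to 0.08 (miR-125b-5p), -0.01 to 0.19 (miR-124-3p), -0.09 to 0.44 (miR-26a-5p), -0.56 to 0.18 (let-7c-5p), -1.73 to 0.02 (miR-125a-5p), -0.01 to 1.39 (miR-449a-5p), -0.1 to 0.48 (miR-34a-5p), -3.85 to 1.11 (miR-96-5p), -2.12 to 0.02 (miR-182-5p), -2.08 to 0.45 (miR-183-5p), -0.22 to 0.55 (miR-219a-2-3p), -0.1 to 0.94 (miR-219a-1-3p), -0.41 to 0.56 (miR-338-5p), -0.09 to 1.6 (miR-144-3p), -0.27 to 1.43 (miR-499-5p), -1.2 to 0.36 (miR-133a-5p), -14.65 to 0 (miR-5124a), -0.13 to 1.87 (Snord17). In 80 of them the adjusted p passed 0.05, and the other 1482 kept sign and side. The muscle, oligodendrocyte and miR-34 lists hold few members, and 2 libraries a group at 3171341 to 5822866 counts limit what could be detected.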

Other observations

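Among the smaller classes, the snRNA pseudogene and gene rows summed to 887 and 236 CPM in the SE libraries and to 598 and 3493 CPM in the controls, beside at most 667 CPM at the other times. Of 26 tested, 10 were above 0 and 16 below. Rnu5g, a component of the spliceosome, was at 32.6 and 16.6 against 12.8 and 13.2 CPM, SE against control. The 16 predicted microRNAs had 4 above 0 and 12 below. p-mmu-miR-36 was at 0.540 and 0 against 1.09 and 575 CPM, and p-mmu-miR-15 at 123 and 110.0 against 62.4 and 81.2 CPM.

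The 5p and 3p arms of 1 hairpin come from the same precursor. Both were tested for 190 hairpins, and 119 pairs had log2 fold changes of the same sign, while the Pearson r of log2 fold change over the pairs was 0.117. Base composition differed between the ends of the ranking. The 20 microRNAs of smallest p that were higher without overlap had a median GC content of 37.2%, and the 20 that were lower had 61.4%, beside 48.0% over the 572 of 663 tested microRNAs with a RefSeq sequence. Across 341 microRNAs with a mean of 10 CPM or more, the Pearson r of log2 fold change with GC content was -0.29. It was -0.22 without SE replicate 1 and -0.50 without control replicate 2. These points share the same 4 libraries, and microRNAs are not independent replicates.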
